A study of Homo sapiens with 3 samples.

Results

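KIT, MET, FGFR1, FGFR2, FGFR3, PDGFRB, INSR, IGF1R and DDR1, which are 9 receptor tyrosine kinases outside the ERBB, EPH and TAM families, were examined together with KITLG, the ligand of KIT. These 10 genes were found by symbol among the 58381 genes of the deposited count table. T24, an established line of human bladder urothelial carcinoma, was sequenced in 3 conditions with 1 library each. Ctrl was the control without irradiation, RT the control after 10 Gy of γ-radiation, and RT + shHDAC6 the cells labelled as HDAC6 knockdown after the same dose. The growth protocol names a lentiviral shRNA against HDAC6, a control pLKO.1 vector and puromycin selection, so that 1 line, 1 shRNA and 1 dose were covered. Unirradiated knockdown cells were not analysed here, and the time from irradiation to RNA extraction is not given in the sources used here.

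Receptor tyrosine kinases span the plasma membrane, bind a ligand outside the cell and, once paired, phosphorylate themselves and docking proteins inside it. The RAS-ERK and PI3K-AKT pathways carry the signal on to growth, movement and survival. KIT is best known from mast cells, melanocytes and blood progenitors, MET is the receptor of hepatocyte growth factor, and FGFR3 is often mutated in papillary bladder cancer. INSR and IGF1R bind insulin and the insulin-like growth factors, PDGFRB binds platelet-derived growth factors and DDR1 binds collagen.

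KIT stood out in the irradiated control. Its level was 3.92-fold higher in RT than in Ctrl, and under RT + shHDAC6 it was 22.2% of the RT level. MET followed the same course at a smaller size, and KITLG did not. The bases before the start sites of these 3 genes are shown because they differ in course. Each line holds 250 bases that end just before the start given by RefSeq on GRCh38.p14, at chr4:54657707-54657956 (+ strand) for KIT, chr7:116671946-116672195 (+ strand) for MET and chr12:88580472-88580721 (- strand) for KITLG. The KIT and KITLG windows lie inside the GENCODE bounds of these genes given below, and the MET window ends just before its GENCODE start. Capitals mark GC boxes, searched as GGGCGG on both strands.
KIT: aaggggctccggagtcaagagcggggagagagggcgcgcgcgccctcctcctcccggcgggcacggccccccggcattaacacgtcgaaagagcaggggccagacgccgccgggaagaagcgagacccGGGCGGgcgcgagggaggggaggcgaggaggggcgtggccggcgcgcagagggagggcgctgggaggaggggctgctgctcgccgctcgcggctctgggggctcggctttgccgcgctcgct
MET: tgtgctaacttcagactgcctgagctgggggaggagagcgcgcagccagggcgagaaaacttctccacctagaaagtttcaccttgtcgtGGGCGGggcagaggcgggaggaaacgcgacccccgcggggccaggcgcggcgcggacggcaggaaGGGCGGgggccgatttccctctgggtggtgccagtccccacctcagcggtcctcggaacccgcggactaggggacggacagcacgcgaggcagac
KITLG: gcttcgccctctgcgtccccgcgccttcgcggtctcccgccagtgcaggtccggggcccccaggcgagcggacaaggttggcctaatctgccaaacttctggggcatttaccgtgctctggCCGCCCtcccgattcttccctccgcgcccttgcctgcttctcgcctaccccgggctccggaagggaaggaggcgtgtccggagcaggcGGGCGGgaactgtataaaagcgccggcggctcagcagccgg
The KIT window held 1 GC box, and the MET and KITLG windows held 2 each. Such a box was present in 42.6% of 35116 RefSeq windows of this length. The E box (CANNTG, both strands) was found in 61.8% of all windows and in 0 of these 3. The AP-1 site (TGANTCA, both strands) was found in 6.57% of all windows and in 0 of the 3. The TATA box (TATAAA, both strands) was found in 10.7% of all windows and once in KITLG. Matches of different motifs overlapped 0 times in the 3 windows. G and C made up 76.4% of the KIT window, 68.4% of the MET window and 69.2% of the KITLG window, against a median of 58.0% over all windows. Of the 10 genes, 9 had a window, and FGFR1 was the other one.

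With 1 library per condition no difference had a replicate check in these data, and no test between conditions was possible. The paper separately reports replicated qPCR of KIT at a lower dose, higher after irradiation and counteracted by the knockdown. Log2 ratios were taken from counts scaled by TMM, a scaling that lets most genes keep a ratio near 0. Each is given with a 95% Clopper-Pearson interval that covers counting error only. The libraries held 41811165 counts in Ctrl, 35959265 under RT and 35424086 under RT + shHDAC6. Their sizes after TMM scaling were 45349360, 33540433 and 35015626. Counts given for single genes are unscaled, so equal counts in Ctrl and RT mean a higher scaled level under RT. HDAC6 itself had 3098 counts in Ctrl, 2383 under RT and 2170 under RT + shHDAC6. In the library labelled as knockdown its level was thus 87.2% of that in RT (log2 ratio -0.20, interval -0.28 to -0.11), and a lower ratio was found for 24.5% of genes with 100 counts or more. The mRNA of the shRNA target was thus only slightly lower, and its protein was not measured in these data. Ratios with RT + shHDAC6 therefore compare libraries by their labels, and how far HDAC6 was reduced in these cells is not shown by the counts. In separate qPCR and Western blot assays the paper reports lower HDAC6 mRNA and protein in T24 cells with the knockdown. The epithelial keratin KRT18 had 7336 to 9048 counts and the mesenchymal gene VIM 74147 to 121716. KRT18 had an RT/Ctrl log2 ratio of 0.62, where EPCAM, CDH1, KRT8 and KRT19 had -0.67 to -0.39. Of 9 urothelial genes, GATA3 had 709 to 2320 counts, PPARG 352 to 1298 and FOXA1 303 to 509. UPK1B, UPK2, UPK3A and KRT20, which mark differentiated urothelium, had 3 counts or fewer in every library. The uroplakins UPK1A and UPK3B had 18, 2 and 2 and 5, 2 and 2 in Ctrl, RT and RT + shHDAC6. In bulk RNA, fewer cells that express a gene and less RNA per cell cannot be told apart.

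KIT (ENSG00000157404, chromosome 4, 54657267 to 54740783, GRCh38) is the receptor of stem cell factor. Ctrl held 560 KIT counts, RT 1622 and RT + shHDAC6 376, so that the RT library alone was high. The RT/Ctrl log2 ratio was 1.97 (interval 1.83 to 2.11), a value exceeded by 0.1% of the 12670 genes that reached 100 counts. The RT + shHDAC6/RT log2 ratio was -2.17 (interval -2.34 to -2.01), and 0.3% of 12066 genes had a lower one. Relative to Ctrl the RT + shHDAC6 library stood at -0.20 (interval -0.39 to -0.010). The RT library enters both of the first ratios, and a high value there alone would give this pair.

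KITLG (chromosome 12, 88492793 to 88580851) encodes stem cell factor. Ctrl held 1406 KITLG counts, RT 1094 and RT + shHDAC6 1065. The RT/Ctrl log2 ratio was 0.073 (interval -0.042 to 0.19) with TMM and -0.14 with library totals. The RT + shHDAC6/RT log2 ratio was -0.10 (interval -0.22 to 0.022), so no difference was detectable at this depth. KIT counts per KITLG count, a quantity that needs no library scaling, were 0.398 in Ctrl, 1.48 under RT and 0.353 under RT + shHDAC6. The log2 change of this quantity was 1.90 for RT/Ctrl (exact conditional 95% interval 1.71 to 2.08) and -2.07 for RT + shHDAC6/RT (interval -2.28 to -1.86). For RT + shHDAC6/Ctrl it was -0.17, with an interval of -0.40 to 0.051. It was 1 of 6 such pairs compared.

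PDGFRB (chromosome 5, 150113839 to 150155872), of the same receptor class as KIT, took another course. Ctrl held 391 PDGFRB counts, RT 245 and RT + shHDAC6 176. Its log2 ratio was -0.24 (interval -0.48 to -0.0050) for RT/Ctrl, -0.54 (interval -0.83 to -0.25) for RT + shHDAC6/RT and -0.78 (interval -1.04 to -0.52) for RT + shHDAC6/Ctrl. KIT counts per PDGFRB count were 1.43 in Ctrl, 6.62 under RT and 2.14 under RT + shHDAC6, and the last exceeded Ctrl by 0.58 on the log2 scale (interval 0.25 to 0.91). PDGFRA and KDR, the receptor genes on each side of KIT on chromosome 4, lay 359.0 kb before it and 337.7 kb after it. PDGFRA had an RT/Ctrl log2 ratio of -0.20 and KDR of -0.55, where KIT had 1.97.

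MET (chromosome 7, 116672196 to 116798377) had the most counts of the 10 genes. Ctrl held 7752 MET counts, RT 11340 and RT + shHDAC6 4872, so that RT was again highest while RT + shHDAC6 lay under Ctrl. The RT/Ctrl log2 ratio was 0.98 (interval 0.94 to 1.03), just under 2-fold. It was 1.04 with the median-of-ratios factors of DESeq2 and 0.77 with library totals. The level under RT + shHDAC6 was 41.2% of the RT level. The log2 ratio there was -1.28 (interval -1.33 to -1.23), and 1.4% of genes with 100 counts or more had a lower one. For RT + shHDAC6/Ctrl the log2 ratio was -0.30 (interval -0.35 to -0.24).

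DDR1 (chromosome 6, 30876421 to 30900156), the collagen receptor, had 1813 counts in Ctrl, and RT held 1284 and RT + shHDAC6 1266. Its log2 ratio was -0.063 (interval -0.17 to 0.041) for RT/Ctrl, and -0.28 with library totals. For RT + shHDAC6/RT it was -0.082 (interval -0.20 to 0.031), and 0.0010 with library totals. MET counts per DDR1 count were 4.28 in Ctrl, 8.83 under RT and 3.85 under RT + shHDAC6. This quantity changed by 1.05 on the log2 scale for RT/Ctrl (interval 0.93 to 1.16) and by -1.20 for RT + shHDAC6/RT (interval -1.32 to -1.07).

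**Figure D1:**
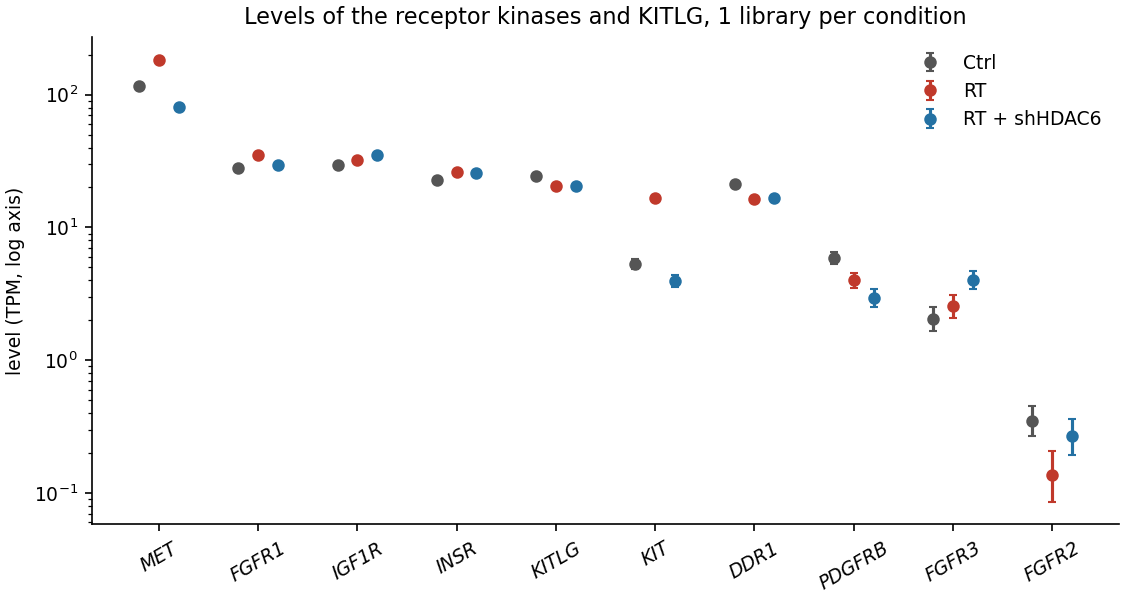
Level of each of the 10 genes in TPM (log axis) in Ctrl, RT and RT + shHDAC6, with bars for the 95% exact Poisson interval of the counts. KIT stands at 5.33, 16.7 and 3.97 TPM and MET at 116.0, 183.0 and 80.7 TPM, while IGF1R lies between 29.3 and 34.9 TPM.

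FGFR1 (chromosome 8, 38400215 to 38468834) was the FGF receptor with the most counts, 4449 in Ctrl, 5187 under RT and 4205 under RT + shHDAC6. Its log2 ratio was 0.66 (interval 0.60 to 0.71) for RT/Ctrl, -0.36 (interval -0.42 to -0.31) for RT + shHDAC6/RT and 0.29 (interval 0.23 to 0.35) for RT + shHDAC6/Ctrl. Exons of other genes on the opposite strand, LETM2 among them, cover 3.05% of its exon length. FGFR3 (chromosome 4, 1793293 to 1808872) was instead highest under RT + shHDAC6, at 92, 106 and 164 counts. Its log2 ratio was 0.64 (interval 0.22 to 1.06) for RT/Ctrl, 0.57 (interval 0.21 to 0.93) for RT + shHDAC6/RT and 1.21 (interval 0.83 to 1.59) for RT + shHDAC6/Ctrl. FGFR2 (chromosome 10, 121478332 to 121598458) was lowest under RT, at 61, 22 and 42 counts. Its RT/Ctrl log2 ratio was -1.04 (interval -1.81 to -0.31), and -0.98 with median-of-ratios factors. For RT + shHDAC6/RT it was 0.87 (interval 0.094 to 1.69).

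FGFR1 counts per FGFR3 count were 48.4 in Ctrl, 48.9 under RT and 25.6 under RT + shHDAC6. On the log2 scale this quantity changed by 0.017 for RT/Ctrl (interval -0.41 to 0.44) and by -0.93 for RT + shHDAC6/RT (interval -1.30 to -0.57). FGFR1 counts per FGFR2 count changed by 1.69 for RT/Ctrl (interval 0.97 to 2.47) and by -1.24 for RT + shHDAC6/RT (interval -2.05 to -0.46).

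Genes that mark cell types outside the urothelium were present at low levels, and 2 of these lists had, as sums, the library order of FGFR2. The summed level of 5 mast cell genes was 3.86 TPM in Ctrl, 1.9 under RT and 3.05 under RT + shHDAC6, with 2 of the 5 at 3 counts or fewer under RT. That of 3 leukocyte genes was 2.81, 1.81 and 2.19 TPM, with none at 3 counts or fewer. Single genes differed from the sums, and 2 of the 5 mast cell genes and 1 of the 3 leukocyte genes had this order in TPM. The leukocyte gene PTPRC (120, 66 and 57 counts) and the mast cell gene CPA3 (24, 14 and 6) were lowest under RT + shHDAC6, and the T cell gene CD3E had 15, 14 and 17. Of 4 melanocyte genes, PMEL made up nearly the whole sum of 1.14, 1.12 and 1.37 TPM, with 38, 34 and 40 counts, while TYR was at 0 in every library and MLANA had at most 1 count. Basal urothelial genes, which belong to the tissue of this line, summed to 34.5, 18.9 and 25.9 TPM. In TPM the same order was found in the sum of 4 mesenchymal genes (2720, 1850 and 2350 TPM) and in 3 of these 4 genes. With TMM scaling it was not found in VIM, which made up most of that sum. Its RT + shHDAC6/Ctrl log2 ratio was 0.028 (interval 0.016 to 0.040), so Ctrl was not highest, while FN1 and ZEB1 kept the order. This order was also found in TPM in 4 of 5 epithelial genes, though not in their sum. With TMM scaling EPCAM lost it (RT + shHDAC6/Ctrl log2 ratio 0.12), while CDH1, KRT8 and KRT19 kept it. The order was thus not particular to markers of other cell types. The part of the mast cell, leukocyte and melanocyte signals in the values of FGFR2 and of KIT, which mast cells and melanocytes use, was not tested.

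INSR (chromosome 19, 7112255 to 7294414) had 2297, 2426 and 2333 unscaled counts. Its log2 ratio was 0.51 (interval 0.43 to 0.60) for RT/Ctrl, and 0.30 with library totals, and -0.12 (interval -0.20 to -0.036) for RT + shHDAC6/RT. IGF1R (chromosome 15, 98648539 to 98964530) had 3789, 3830 and 4066 counts. Its log2 ratio was 0.45 (interval 0.39 to 0.52) for RT/Ctrl, and 0.23 with library totals, and 0.024 (interval -0.040 to 0.088) for RT + shHDAC6/RT. INSR counts per IGF1R count were 0.606 in Ctrl, 0.633 under RT and 0.574 under RT + shHDAC6. The log2 change was 0.063 for RT/Ctrl (interval -0.042 to 0.17) and -0.14 for RT + shHDAC6/RT (interval -0.25 to -0.038).

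A gene was called when it differed at least 2-fold and had at least 10 counts in either library. All 10 members passed this filter in each comparison, and 9, all but FGFR2, had at least 100 counts in a library. For RT/Ctrl, 1 member (KIT) was called higher and 1 (FGFR2) lower, against 4.81% higher and 9.17% lower of 20267 genes. Among 12670 genes with at least 100 counts the shares were 4.24% and 2.19%. The balance over all genes moved with the scaling, from 975 higher and 1858 lower with TMM to 523 and 2845 with library totals. For RT + shHDAC6/RT, 0 members were called higher and 2 (KIT and MET) lower, against 4.35% and 4.78% of 19013 genes, or 0.995% and 2.15% of the 12066 with at least 100 counts. For RT + shHDAC6/Ctrl, 1 member (FGFR3) was called higher and 0 lower, against 4.91% and 10.5% of 20374 genes, or 3.56% and 4.42% of the 12712 with at least 100 counts. The members' median log2 ratio was 0.48, -0.11 and -0.086 in this order of comparisons, beside 0.051, -0.019 and 0.039 over genes with at least 100 counts.

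**Figure D2:**
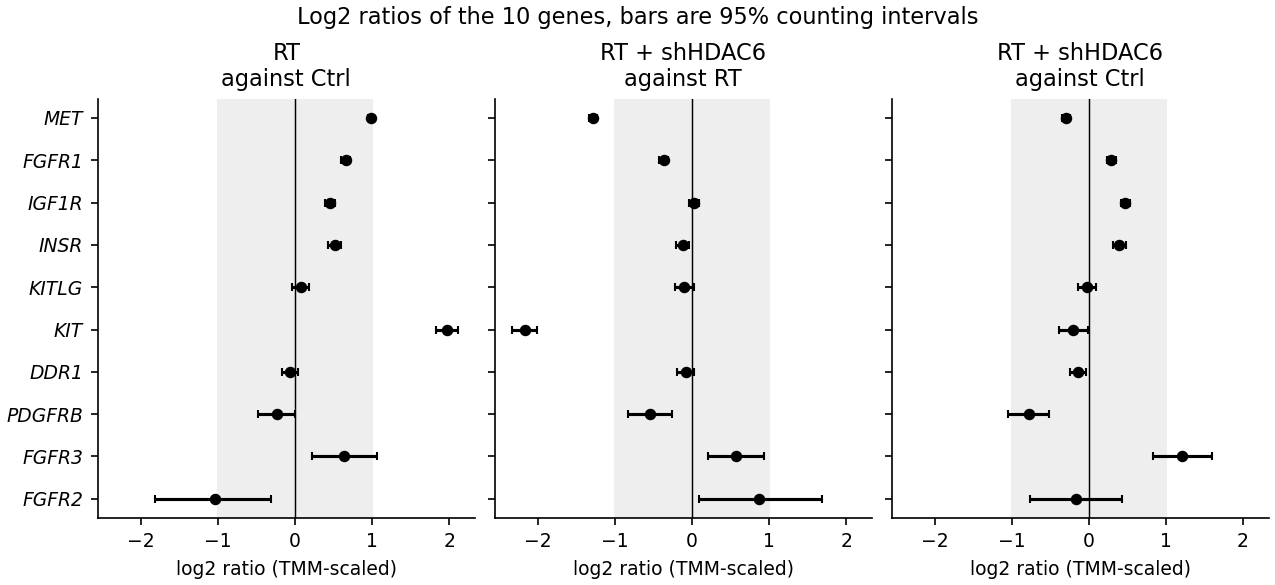
Log2 ratios (TMM-scaled) of the 10 genes in the 3 comparisons, with 95% counting intervals and a grey band for changes under 2-fold. KIT leaves the band at 1.97 for RT/Ctrl and, with MET, at -2.17 and -1.28 for RT + shHDAC6/RT. FGFR2 leaves it at -1.04 for RT/Ctrl and FGFR3 at 1.21 for RT + shHDAC6/Ctrl.

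**Figure D3:**
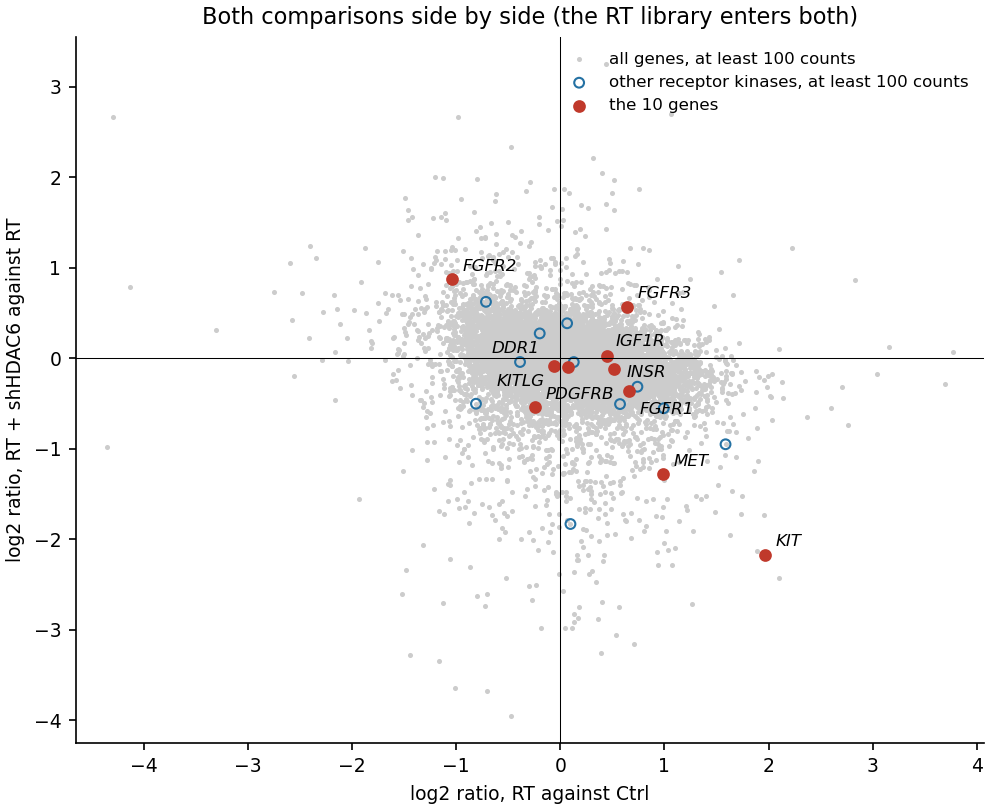
RT + shHDAC6/RT log2 ratio plotted over the RT/Ctrl log2 ratio (both TMM-scaled), for genes that reached 100 counts in some library (grey), other receptor kinases (open circles) and the 10 genes (red). KIT lies at 1.97 and -2.17 and MET at 0.98 and -1.28, and the RT library enters both axes.

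Levels of different genes were compared within a library in TPM, which divides counts by exon length. In Ctrl, MET led with 116.0 TPM, followed by IGF1R (29.3), FGFR1 (27.9), KITLG (24.4), INSR (22.9) and DDR1 (21.4). PDGFRB (5.91), KIT (5.33), FGFR3 (2.05) and FGFR2 (0.35) were lower. Counting intervals overlapped between IGF1R and FGFR1, KITLG and INSR, INSR and DDR1, and PDGFRB and KIT. Under RT, MET reached 183.0 TPM and KIT 16.7, its interval overlapping that of DDR1 (16.4). Under RT + shHDAC6 MET was still first at 80.7 TPM, and KIT (3.97) overlapped FGFR3 (4.05). With the longest transcript as gene length, FGFR1 took the place after MET in Ctrl (56.9 TPM), and under RT + shHDAC6 the intervals of FGFR1 and MET overlapped (61.1 and 64.0 TPM).

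The 9 receptors summed to 21204 counts in Ctrl, 26062 under RT and 17500 under RT + shHDAC6. MET took 36.6% of them in Ctrl (Clopper-Pearson interval 35.9% to 37.2%), 43.5% under RT (42.9% to 44.1%) and 27.8% under RT + shHDAC6 (27.2% to 28.5%). KIT took 2.64% (2.43% to 2.87%), 6.22% (5.93% to 6.52%) and 2.15% (1.94% to 2.37%). IGF1R took 17.9%, 14.7% and 23.2%. Shares of 1 sum are tied to each other, so a lower share of IGF1R under RT follows from more MET and KIT counts. The unscaled IGF1R counts were 3789 in Ctrl and 3830 under RT, and its TMM-scaled RT/Ctrl log2 ratio was 0.45.

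**Figure D4:**
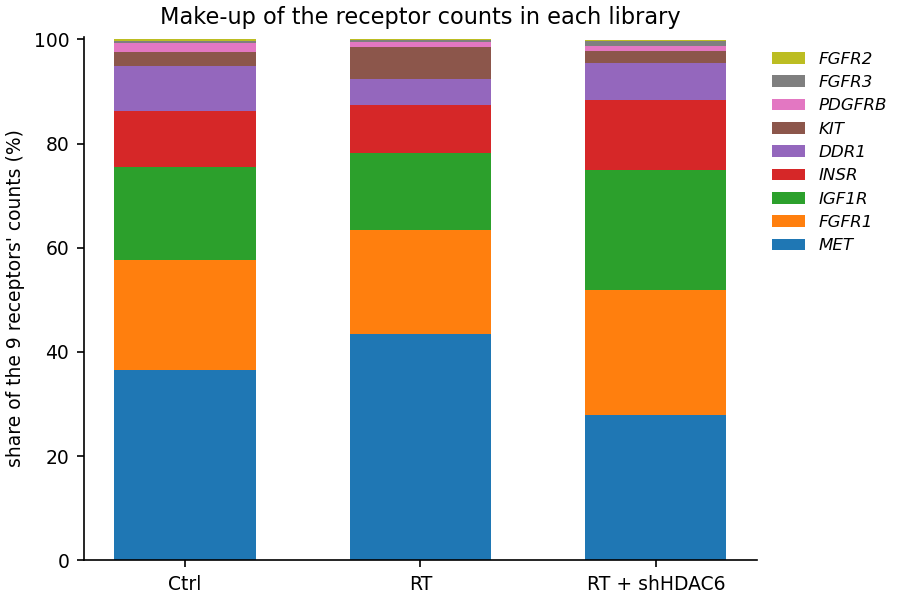
Share of the 9 receptors' summed counts taken by each receptor, as stacked bars for Ctrl, RT and RT + shHDAC6. The MET segment covers 36.6%, 43.5% and 27.8%, and the KIT segment 2.64%, 6.22% and 2.15%.

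The calls in the gene lists that follow stand beside 4.81% higher and 9.17% lower of all genes with at least 10 counts for RT/Ctrl, and 4.35% and 4.78% for RT + shHDAC6/RT. Each list is small, and a difference from these shares was not tested. Other receptor kinases formed a list of 28, of which 22 passed the filter for RT/Ctrl, with 1 called higher and 3 lower (median log2 ratio -0.26). Relative to RT, 23 passed for RT + shHDAC6, with 3 called higher and 2 lower (median 0.090). The 3 called higher, NTRK3, ROR2 and LTK, had 21 counts or fewer in both libraries. FLT3, 1 of the 2 called lower, had 11 and 5, and the intervals of ROR2, LTK and FLT3 included 0. ROR1, a WNT5A receptor, had 275, 611 and 330 counts in library order, with log2 ratios of 1.59 for RT/Ctrl and -0.95 for RT + shHDAC6/RT. The 3 called lower for RT/Ctrl, FLT4, NTRK3 and ROR2, had 44 counts or fewer. STYK1 had 922, 730 and 214 counts, with a log2 ratio of -1.83 for RT + shHDAC6/RT. LMTK3 had 135, 57 and 42 counts, with -1.31 for RT + shHDAC6/Ctrl. The 3 most abundant were FGFRL1, which lacks a kinase domain (8650, 9522 and 6997 counts), PTK7 (8152, 12010 and 8549) and RYK (5378, 4353 and 4411). Their RT/Ctrl log2 ratios were 0.57, 0.99 and 0.13.

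Of 36 ligands of the other receptors, 20 passed the filter. For RT/Ctrl 1 was called higher and 4 lower (median -0.54), and for RT + shHDAC6/RT 2 higher and 1 lower (median 0.17). FGF5 had 4551, 12339 and 8832 counts, with log2 ratios of 1.87 for RT/Ctrl and -0.54 for RT + shHDAC6/RT. HGF, the ligand of MET, had 130, 42 and 93 counts, and its RT/Ctrl log2 ratio of -1.20 was opposite in sign to that of MET. FGF13, an intracellular family member, had the same library order with 141, 46 and 109 counts, and IGF1 had 63, 21 and 38. In TPM the mast cell and leukocyte sums, though not most of their genes, also had this order, and their part here was not tested. The basal urothelial and mesenchymal sums had it too in TPM, but VIM, most of the mesenchymal sum, did not with TMM scaling. PDGFB, a ligand of PDGFRB, had 257, 54 and 61 counts (RT/Ctrl log2 ratio -1.82). PDGFA had 283, 249 and 497 (RT/Ctrl log2 ratio 0.25), and PDGFD 211, 181 and 94 (0.21). FGF1 had 89, 123 and 198 counts, with a log2 ratio of 1.53 for RT + shHDAC6/Ctrl. The collagens COL1A1 and COL3A1 had 4706, 2388 and 2921 counts and 7426, 4701 and 2971. INS was at 0 in every library.

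Of 16 binding proteins and co-receptors, 14 passed the filter, with 5 called higher and 1 lower for RT/Ctrl (median 0.31). IGFBP3, which binds insulin-like growth factors, had 1306, 3600 and 1712 counts, with log2 ratios of 1.90 for RT/Ctrl and -1.13 for RT + shHDAC6/RT. FGFBP3, GPC1 and IGFBP1 had RT/Ctrl log2 ratios of 1.54, 1.44 and 1.12, and RT + shHDAC6/Ctrl ratios of 1.37, 1.20 and 1.48. CD44, a co-receptor of MET, had 42674, 64681 and 64753 counts, with log2 ratios of 1.03 for RT/Ctrl and -0.060 for RT + shHDAC6/RT. For RT + shHDAC6/RT 1 was called higher (IGFBP4, with 953, 510 and 1205 counts) and 3 lower (median -0.10). The 3 were IGFBP3, FGFBP1 with 120, 41 and 13 counts, and FGFBP2 with 35, 23 and 1. IGF2R, which clears IGF2, had 16489, 22164 and 17787 counts, and IGFBP6 735, 860 and 904.

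Of 21 adaptors and effectors, 0 were called in any comparison with TMM, and 1 was lower for RT/Ctrl with library totals. Their log2 ratios ran from -0.92 to 0.44 for RT/Ctrl (median -0.20) and from -0.94 to 0.64 for RT + shHDAC6/RT (median 0.059). SHC1 had 14458, 9504 and 10320 counts, CRK 7389, 3711 and 4450, and GRB2 6445, 4135 and 4615. Of 17 negative regulators, 1 was called higher and 1 lower for RT/Ctrl (median -0.41). The higher one was the phosphatase PTPRF with 31988, 50012 and 41496 counts, and the lower one was INPP5D with 68, 22 and 31. For RT + shHDAC6/RT 0 of 16 were called (median -0.074). SH2B3, an inhibitor of KIT signalling, had 8794, 3835 and 5583 counts, and INPPL1 9693, 5960 and 5465. Of 10 genes that process the ligands or receptors, 9 passed the filter. The protease PLAU was called higher for RT/Ctrl (8514, 13592 and 19110 counts, log2 ratio 1.11), and 0 were called for RT + shHDAC6/RT. FURIN, which cleaves the precursors of MET, INSR and IGF1R, had 9459, 9209 and 7317 counts, and its RT/Ctrl log2 ratio was 0.40. The sheddase ADAM10 had 13147, 13028 and 11719 (RT/Ctrl log2 ratio 0.42).

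Of 9 transcription factors known from work on KIT, 7 passed the filter. For RT/Ctrl 0 were called, and the log2 ratios ran from -0.67 to -0.061 (median -0.19) where KIT had 1.97. GATA2 was the 1 called higher for RT + shHDAC6/RT, with 991, 641 and 1354 counts (log2 ratio 1.02), where KIT was lower. SP1 had 9456, 5385 and 5599 counts (RT/Ctrl log2 ratio -0.38) and TFAP2A 2241, 1589 and 1439 (-0.061).

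**Figure D5:**
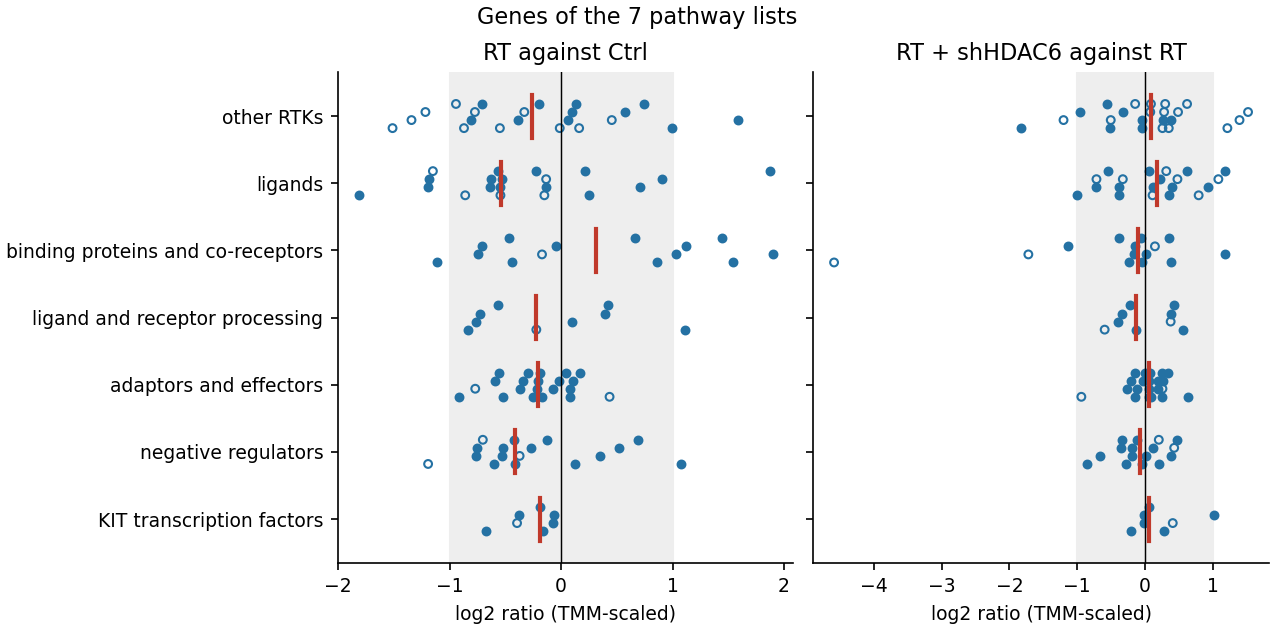
Log2 ratios (TMM-scaled) of the genes of the 7 lists for RT/Ctrl and RT + shHDAC6/RT, 1 point per gene with at least 10 counts in either library (filled: at least 100), with red bars at list medians and a grey band under 2-fold. The medians lie between -0.54 and 0.31 for RT/Ctrl and between -0.13 and 0.17 for RT + shHDAC6/RT.

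The 5 genes nearest to KIT by straight-line distance in the plane of the RT/Ctrl and RT + shHDAC6/RT log2 ratios were taken from 12733 genes with at least 100 counts. FST, the activin antagonist follistatin, lay at a distance of 0.094 with 171, 468 and 112 counts. PXYLP1 lay at 0.29 (1272, 4021 and 779 counts) and INHBA, a subunit of activin, at 0.41 (1345, 3075 and 830). EDN1, the precursor of endothelin, lay at 0.44 (71, 204 and 64) and CCN2, a secreted matrix-associated protein, at 0.50 (2726, 6734 and 2127). They were chosen by this position, so the values are a description. Of 20527 genes with at least 10 counts, 143 (0.697%) were, as KIT was, at least 2-fold higher for RT/Ctrl and at least 2-fold lower for RT + shHDAC6/RT.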

How the data were processed

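The authors deposited whole-number read counts per gene without normalisation, 1 column for each of the 3 libraries. Trimming was by cutadapt, alignment to GRCh38 by STAR (2.6.1a per the labels), and they counted GENCODE release 28 genes with featureCounts. Strand and multi-mapping settings are not given in the sources used here, and isoforms cannot be told apart. The methods speak of a control vector, whereas the paper's results call the irradiated comparison cells parental, and the sample labels give the control's treatment only as Empty. If the control carried no vector, knockdown cannot be told apart from lentiviral infection and puromycin selection. Symbols, positions and exon lengths came from GENCODE release 44 (57754 genes matched).

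TMM factors were computed with edgeR 4.0.16 and size factors with DESeq2 1.42.0. With 1 library per condition neither could test a difference, and the study's NOISeq calls, which rest on simulated noise, were not used. Counts of 0 were set to 0.5. Intervals (scipy 1.17.1) cover counting error only, since reads are not counts of independent molecules. The ratio step was tested on simulated Poisson counts scaled by library totals, which covers neither TMM scaling nor variation between libraries. The members and gene lists were chosen with earlier results of these data known. Named are the members, HDAC6, called list genes with at least 100 counts (at most 4 each way), the 3 highest of each list in TPM, the 5 genes nearest to KIT and its neighbours. Markers, INS, IGF1, FLT3, FLT4, NTRK3, ROR2, LTK, FGFBP2 and INPP5D were named after their values were seen. Alternatives covered scaling, zeros, filter, fold and gene length.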

Additional observations from a re-analysis of the deposited data

How the results depend on the processing

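Every log2 ratio of the 10 genes kept its direction under library totals, median-of-ratios, upper quartile and zeros set to 1, except KITLG in RT against Ctrl (-0.14 with library totals) and in RT + shHDAC6 against Ctrl (0.021 with median-of-ratios) and DDR1 in RT + shHDAC6 against RT (0.0010 with library totals). Relative to TMM, library totals shifted RT/Ctrl by -0.22, RT + shHDAC6/RT by 0.084 and RT + shHDAC6/Ctrl by -0.13 on the log2 scale. With median-of-ratios 2 members (KIT and MET) were higher and 0 lower in RT than in Ctrl, and 2 other receptor kinases were higher. With at least 100 counts 0 members were lower in RT. With 1.5-fold, 4 members were higher in RT than in Ctrl, 1 was higher in RT + shHDAC6 than in RT and 1 was lower in RT + shHDAC6 than in Ctrl.

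Over all genes, library totals gave 523 higher and 2845 lower in RT than in Ctrl, against 975 and 1858 with TMM. In the order higher and lower for RT against Ctrl, RT + shHDAC6 against RT and RT + shHDAC6 against Ctrl, no filter gave 4036, 5149, 3032, 5179, 4157 and 5309, at least 100 counts gave 537, 278, 120, 259, 452 and 562, and 1.5-fold gave 2938, 4156, 1917, 1888, 2830 and 4182. In the lists, library totals gave for RT against Ctrl 6 other receptor kinases lower, 3 binding proteins higher, 0 processing genes higher and 1 lower, 1 adaptor lower and 0 negative regulators higher. They gave 0 ligands lower for RT + shHDAC6 against RT, and 1 processing gene and 1 negative regulator lower for RT + shHDAC6 against Ctrl. Upper quartile scaling gave 0 ligands lower for RT + shHDAC6 against RT and 1 negative regulator lower for RT + shHDAC6 against Ctrl. The longest transcript as gene length moved 25 of 30 member levels in TPM beyond their counting intervals. No paired analysis was possible because each condition had 1 library, and none could be left out. The depth limits FGFR2 and FGFR3 most, with 22 to 164 counts.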
